A study of Mus musculus with 6 samples.

Results

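A set of 10 genes that encode chaperones, folding enzymes and regulators of the endoplasmic reticulum (ER) were followed in cultured mouse hippocampal neurons before and during depolarisation with KCl. They were taken by name, and each matched 1 Ensembl identifier among the 22667 genes listed, of which 21553 had values. After 3 h in KCl, transcripts of the Hsp70 cochaperone genes Dnajb9 and Dnajc3, of the ER Hsp70 gene Hspa5 and of the sensor gene Atf6 were higher than in untreated neurons, by 2.81-fold, 1.73-fold, 1.64-fold and 1.37-fold. The other 6 members, Xbp1, Hsp90b1, Sdf2l1, Calr, Pdia4 and Herpud1, did not pass the test at 3 h, which leaves replicate number out. With replicate number as a block, Hsp90b1, Calr and Herpud1 passed as well. With only the untreated and 3 h libraries in the fit, Hspa5 and Atf6 did not pass. The calls also moved when single libraries were left out. No member passed after 0.5 h, with or without the block.

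Proteins that enter the ER are folded there by Hspa5 (BiP), an Hsp70 chaperone whose cycle is set by cochaperones with J domains, by the Hsp90 paralogue Hsp90b1 (GRP94), by lectin chaperones such as calreticulin and by disulfide isomerases. When folding demand exceeds this capacity, the unfolded protein response is set off through the sensors Ire1, Perk and Atf6, and raises transcription of the chaperones and of genes for disposal of misfolded proteins. Neurons rely on the same machinery for receptors, channels and secreted peptides, and calreticulin and Hsp90b1 also bind calcium in the ER lumen.

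The neurons came from C57bl/6 mouse embryos (E16.5) and were cultured for 10 days. The 3 groups of 2 libraries each were made from neurons left without KCl, neurons in 55 mM KCl for 0.5 h and neurons in 55 mM KCl for 3 h. The labels speak of biological duplicates and do not say what was duplicated, so the p-values measure the spread between these libraries. The libraries held 98882007 to 141865913 counts, of which the 10 members took 0.164% and 0.165% in untreated neurons, 0.167% and 0.171% at 0.5 h, and 0.198% and 0.244% at 3 h.

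The cultures were not made up of neurons alone. The summed level of 6 astrocyte markers was 824 and 1240 cRPKM in untreated replicates 1 and 2, 832 and 1375 at 0.5 h, and 887 and 1874 at 3 h. cRPKM is the RPKM value deposited by the authors, with a correction that no source used here explains. RPKM stands for reads scaled to gene length and library depth. In untreated replicates 1 and 2 the astrocyte markers differed mainly by Gfap (22.4 and 307) and Aldoc (216 and 322). Slc1a3 (390 and 398), Gja1 (129 and 135), Aqp4 (33.7 and 40.3) and Aldh1l1 (32.9 and 37.5) were closer. At 3 h all 6 were higher in replicate 2 than in replicate 1, and higher than in untreated replicate 2. In 3 h replicates 1 and 2, Slc1a3 stood at 442 and 635, Gja1 at 138 and 183 and Aqp4 at 35.2 and 58.9. Aldh1l1 stood at 36.9 and 55.9, Aldoc at 211 and 467 and Gfap at 24.6 and 475. The choroid plexus marker Ttr stood at 0.08 cRPKM in untreated replicate 1 and 136 in untreated replicate 2, at 0.04 and 189 at 0.5 h, and at 0.13 and 229 at 3 h, so it was high in replicate 2 of each group and near 0 in replicate 1. The summed level of 5 pan-neuronal markers was 1260 and 1177 cRPKM in untreated neurons, 1201 and 1080 at 0.5 h and 867 and 688 at 3 h. Much of that difference lay in Tubb3, at 607 and 453 cRPKM in untreated neurons and 253 and 158 at 3 h. Snap25 stood at 260 and 293 against 265 and 224, and Map2 at 217 and 185 against 207 and 156. Syt1 and Rbfox3 were lower at 3 h in both replicates. All 6 microglia markers and 4 of 5 endothelial markers stayed under 1 cRPKM in every library, though none was at 0 throughout. In RNA from a whole culture, fewer cells of a type, less RNA per cell and a change in the marker gene itself cannot be told apart.

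Promoter sequence was read for the 9 members that have an entry in the RefSeq promoter table (build GRCm38.p6), which covers 250 bases before to 50 after each annotated start; Atf6 has no entry in it. The ER stress element, to which activated Atf6 is known to bind together with NF-Y, was searched as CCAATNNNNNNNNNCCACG on both strands. It was found in 4 of the 9 members, Hspa5, Hsp90b1, Dnajc3 and Calr, and in 39 of 32851 promoters of all genes (0.119%). Hsp90b1 held 2 copies. The related element II, ATTGG and CCACG with 1 base between them, was found in Herpud1 and in 12 of all promoters (0.0365%). These elements are shown because they are the sequence that the members' known regulator reads. The matches, each read 5′ to 3′ on the strand that carries it, with the fixed letters at both ends, were as follows.
Hspa5: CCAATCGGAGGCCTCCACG
Hsp90b1, far copy: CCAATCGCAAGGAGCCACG
Hsp90b1, near copy: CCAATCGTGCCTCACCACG
Dnajc3: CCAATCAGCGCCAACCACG
Calr: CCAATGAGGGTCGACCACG
Herpud1, element II: ATTGGGCCACG

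The 250 bases before the start are shown for the Hsp70 gene Hspa5 (chr2:34771840-34772089, plus strand), for Dnajc3 (chr14:118937682-118937931, plus strand) and Hsp90b1 (chr10:86705445-86705694, minus strand), which share the element and of which Dnajc3 passed the test at 3 h and Hsp90b1 did not, for Herpud1 (chr8:94386179-94386428, plus strand), which holds element II, and for Dnajb9 (chr12:44210069-44210318, minus strand), which changed most. Capitals mark the ER stress elements and, in Hspa5, 1 match to the AP-1 site TGANTCA. The sequence is that of the gene's own strand.
Hspa5: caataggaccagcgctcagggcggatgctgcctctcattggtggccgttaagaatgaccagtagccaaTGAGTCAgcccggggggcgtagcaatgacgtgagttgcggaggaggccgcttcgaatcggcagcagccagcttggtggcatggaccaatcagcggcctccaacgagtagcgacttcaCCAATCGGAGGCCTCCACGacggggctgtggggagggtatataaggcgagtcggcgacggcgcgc
Dnajc3: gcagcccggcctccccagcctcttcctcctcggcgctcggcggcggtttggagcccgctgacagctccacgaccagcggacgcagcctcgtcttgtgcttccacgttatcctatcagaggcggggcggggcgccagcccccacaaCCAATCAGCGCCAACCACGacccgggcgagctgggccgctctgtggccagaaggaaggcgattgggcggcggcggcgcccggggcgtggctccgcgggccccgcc
Hsp90b1: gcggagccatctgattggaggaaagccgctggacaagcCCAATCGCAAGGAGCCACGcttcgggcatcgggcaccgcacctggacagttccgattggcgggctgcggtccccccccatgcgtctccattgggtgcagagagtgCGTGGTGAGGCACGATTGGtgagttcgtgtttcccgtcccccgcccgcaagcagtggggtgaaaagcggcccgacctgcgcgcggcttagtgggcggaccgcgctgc
Herpud1: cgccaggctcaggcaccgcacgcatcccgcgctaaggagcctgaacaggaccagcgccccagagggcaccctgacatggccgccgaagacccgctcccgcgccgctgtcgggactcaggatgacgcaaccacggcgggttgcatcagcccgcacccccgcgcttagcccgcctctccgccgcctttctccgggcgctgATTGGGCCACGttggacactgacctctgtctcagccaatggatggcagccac
Dnajb9: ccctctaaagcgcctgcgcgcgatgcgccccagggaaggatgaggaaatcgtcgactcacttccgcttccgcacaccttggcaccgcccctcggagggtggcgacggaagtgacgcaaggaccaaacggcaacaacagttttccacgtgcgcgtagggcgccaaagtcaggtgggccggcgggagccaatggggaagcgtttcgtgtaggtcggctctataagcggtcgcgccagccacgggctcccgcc

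Among the searched motifs, the Dnajb9 promoter held neither ER stress element, no TGACGTGG (a form that Xbp1 is known to bind), no TGACGTCA (the full CRE, the site of CREB) and no AP-1 site. TGACGTGG and TGACGTCA were found in 0 of the 9 members, and in 0.676% and 1.79% of all promoters. The AP-1 site stood in 1 of the 9, Hspa5, and in 7.81% of all promoters, and the short CRE letters TGACG in Hspa5, Dnajb9 and Herpud1 and in 20.8% of all promoters. TGACG is contained in TGACGTGG and TGACGTCA. In the Hspa5 sequence above it is part of TGACGTGA, which differs from TGACGTGG in the last letter only. TGACGTGA was not among the motifs searched. The window of Xbp1 held none of the motifs. A missing match says only that these letters are not in the window.

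**Figure D1:**
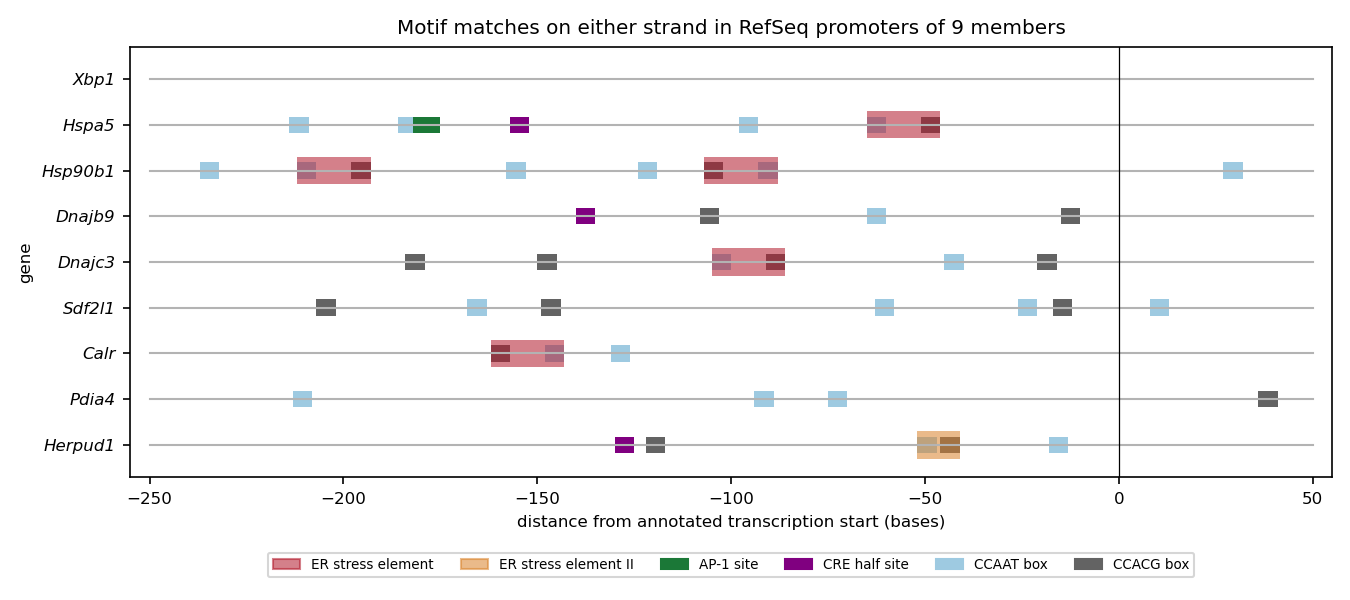
Motif matches in the promoter windows of 9 members, from 250 bases before to 50 bases after the annotated start (horizontal axis, bases). Red boxes are ER stress elements (Hspa5, Dnajc3 and Calr 1 each, Hsp90b1 2) and the orange box is element II in Herpud1; small boxes are the shorter motifs.

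In untreated neurons, ranked by cRPKM, Calr was highest at 183 ± 9.5 cRPKM, then Hspa5 at 170 ± 3.2 and Hsp90b1 at 165 ± 1.2 (SD, n = 2 each). The libraries of Calr and Hspa5 did not overlap, nor did those of Hspa5 and Hsp90b1, but the means of Hspa5 and Hsp90b1 differed by little more than their SDs. These 3 chaperone genes made up 78.2% and 78.4% of the summed cRPKM of the 10 in untreated neurons. Herpud1 at 35.9 ± 1.5 and Xbp1 at 33.7 ± 0.64 followed, then Pdia4 at 28.1 ± 0.61, Dnajb9 at 20.8 ± 0.77 and Dnajc3 at 11.9 ± 0.55 cRPKM (SD, n = 2 each). The sensor gene Atf6 at 8.24 ± 0.83 and the cochaperone gene Sdf2l1 at 5.04 ± 0.23 cRPKM were lowest. The summed level of the 10 was 659 and 665 cRPKM in untreated neurons, 673 and 689 at 0.5 h, and 797 and 981 at 3 h. At 3 h Hspa5 stood first in place of Calr, and Dnajb9 moved past Pdia4, Xbp1 and Herpud1 to 4th of the 10.

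**Figure D2:**
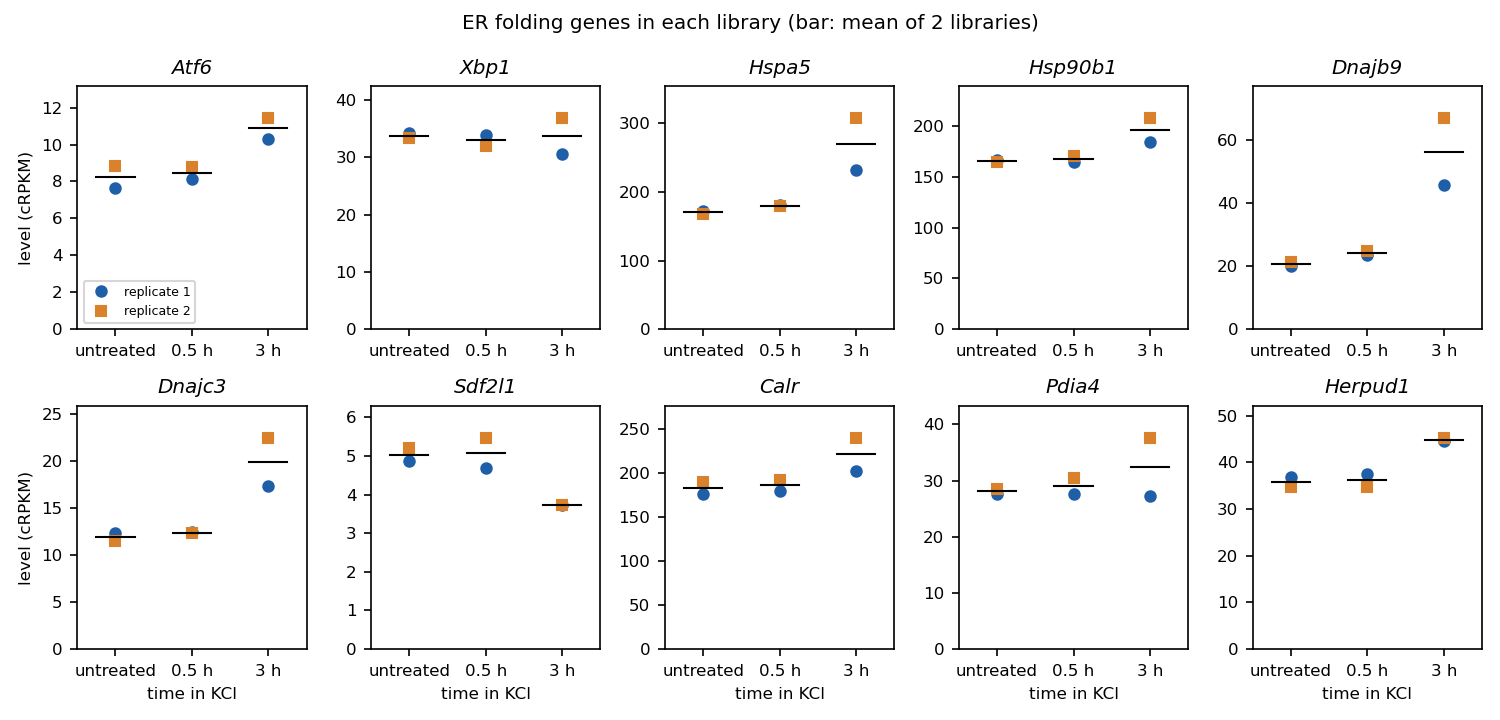
Level of each member (vertical axis, cRPKM, from 0) in each of the 6 libraries by time in KCl, with replicate 1 as circles, replicate 2 as squares and the mean of 2 libraries as a bar. Dnajb9 stands at 45.7 and 67.2 cRPKM at 3 h, against 20.2 and 21.3 in untreated neurons, while Xbp1 overlaps between the groups.

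The chaperone Hspa5, which holds unfolded chains and in resting cells also keeps the sensors inactive, rose at 3 h. Hspa5 (ENSMUSG00000026864) stood at 173 and 168 cRPKM in untreated neurons, 181 and 179 at 0.5 h, and 232 and 308 at 3 h. Both 3 h libraries lay above all 4 others. Its log2 fold change at 3 h against untreated was 0.71 ± 0.14 (SE; adjusted p = 0.028). Here and below, tests are edgeR's quasi-likelihood test on counts, with p adjusted by Benjamini-Hochberg over all 15895 genes tested, and genes with an adjusted p under 0.05 are called. Its Hsp90 partner Hsp90b1 (ENSMUSG00000020048) stood at 166 and 164 cRPKM in untreated neurons, 165 and 170 at 0.5 h, and 184 and 208 at 3 h. Those groups did not overlap at 3 h either, but the log2 difference was smaller, 0.30 ± 0.10, and did not pass (adjusted p = 0.1; 0.038 with replicate number as a block). Of the annotated exon bases of Hsp90b1, 10.3% are shared with the pseudogene 1810014B01Rik on the opposite strand, and the library kit does not mark the strand, so its reads could include some of that transcript.

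Within a library, the level of Hspa5 over that of Hsp90b1 does not depend on how libraries are scaled. The ratio of cRPKM was 1.26 and 1.48 at 3 h, against 1.04 and 1.02 in untreated neurons and 1.10 and 1.05 at 0.5 h. Both 3 h libraries lay above the other 4, so the transcripts of the ER Hsp70 and Hsp90 differed by unequal amounts. These ratios were chosen after the values were seen and carry no test.

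The J-domain cochaperones steer Hspa5 to its clients, and Dnajb9 (ERdj4), which also serves disposal of misfolded proteins, is one of them and showed the largest rise of the 10. Dnajb9 (ENSMUSG00000014905) stood at 20.2 and 21.3 cRPKM in untreated neurons, 23.7 and 24.8 at 0.5 h, and 45.7 and 67.2 at 3 h. Its 3 groups did not overlap. The log2 fold change at 3 h against untreated was 1.49 ± 0.16 (SE; adjusted p = 0.0082), and at 0.5 h the difference was 0.20 ± 0.16, which did not pass (adjusted p = 1). The level of Dnajb9 over that of Hspa5 was 0.197 and 0.218 at 3 h, against 0.117 and 0.127 in untreated neurons.

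Dnajc3 (p58IPK), a luminal cochaperone that is also known as an inhibitor of eIF2 kinases, rose as well. Dnajc3 (ENSMUSG00000022136) stood at 12.3 and 11.5 cRPKM in untreated neurons, 12.5 and 12.3 at 0.5 h, and 17.4 and 22.5 at 3 h. Both 3 h libraries were above the other 4, with a log2 fold change of 0.79 ± 0.12 (adjusted p = 0.016). Sdf2l1, a partner of Hspa5 and the J-domain protein Dnajb11, was the member with lower values. Sdf2l1 (ENSMUSG00000022769) stood at 4.87 and 5.20 cRPKM in untreated neurons, 4.68 and 5.48 at 0.5 h, and 3.74 and 3.73 at 3 h. The 3 h libraries lay below all others, but the log2 difference of -0.37 ± 0.16 did not pass (adjusted p = 0.16; 0.057 with the block). It is also the member with the fewest reads, 391 to 733 per library. Dnajb9 over Sdf2l1 was 12.2 and 18.02 at 3 h, against 4.15 and 4.10 in untreated neurons.

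Calreticulin, the luminal lectin chaperone for glycoproteins and a calcium store, is encoded by Calr. Calr (ENSMUSG00000003814) stood at 176 and 189 cRPKM in untreated neurons, 180 and 192 at 0.5 h, and 202 and 240 at 3 h. The groups at 3 h and in untreated neurons did not overlap, and the log2 difference of 0.33 ± 0.11 did not pass (adjusted p = 0.097; 0.027 with the block). Pdia4 (ERp72, ENSMUSG00000025823), a disulfide isomerase with several thioredoxin-like domains, stood at 27.7 and 28.5 cRPKM in untreated neurons, 27.6 and 30.4 at 0.5 h, and 27.3 and 37.7 at 3 h. Its 3 h libraries lay on either side of the untreated ones, with a log2 difference of 0.26 ± 0.14 (adjusted p = 0.25). Pdia4 over Hspa5 was 0.118 and 0.122 at 3 h, against 0.160 and 0.170 in untreated neurons.

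Herpud1, a membrane protein that helps assemble the complex for ER-associated degradation, varied least between the 3 h libraries among the members with higher values. Herpud1 (ENSMUSG00000031770) stood at 36.9 and 34.8 cRPKM in untreated neurons, 37.6 and 34.7 at 0.5 h, and 44.5 and 45.3 at 3 h. The 3 h libraries were above the other 4, and the log2 difference of 0.38 ± 0.10 fell just short of the threshold (adjusted p = 0.053; 0.013 with the block).

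The regulators differed from each other. Atf6, the membrane-bound factor that is cut in the Golgi to reach the nucleus, rose at 3 h. Atf6 (ENSMUSG00000026663) stood at 7.65 and 8.83 cRPKM in untreated neurons, 8.14 and 8.80 at 0.5 h, and 10.3 and 11.4 at 3 h. The log2 fold change at 3 h was 0.45 ± 0.10 (adjusted p = 0.035), with both 3 h libraries above the others. Xbp1, whose mRNA is spliced by Ire1 to encode the active factor, showed the smallest difference. Xbp1 (ENSMUSG00000020484) stood at 34.2 and 33.3 cRPKM in untreated neurons, 33.8 and 32.0 at 0.5 h, and 30.5 and 36.9 at 3 h. Its log2 difference at 3 h was 0.05 ± 0.10 (adjusted p = 0.76), with a 95% interval from -0.20 to 0.30. The values are totals per gene and do not separate the spliced from the unspliced mRNA.

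**Figure D3:**
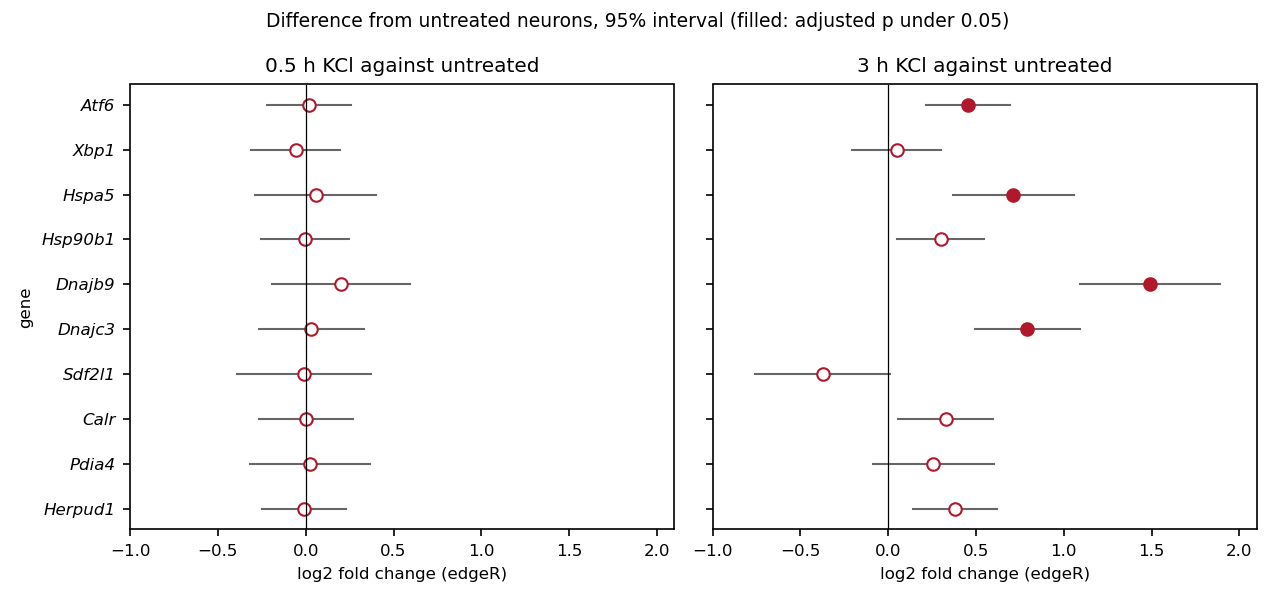
Log2 fold change of each member at 0.5 h and 3 h against untreated neurons (horizontal axis; points, edgeR estimate; lines, 95% interval; filled, adjusted p under 0.05). At 0.5 h the points lie between -0.06 and 0.20, and at 3 h between -0.37 (Sdf2l1) and 1.49 (Dnajb9).

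**Figure D4:**
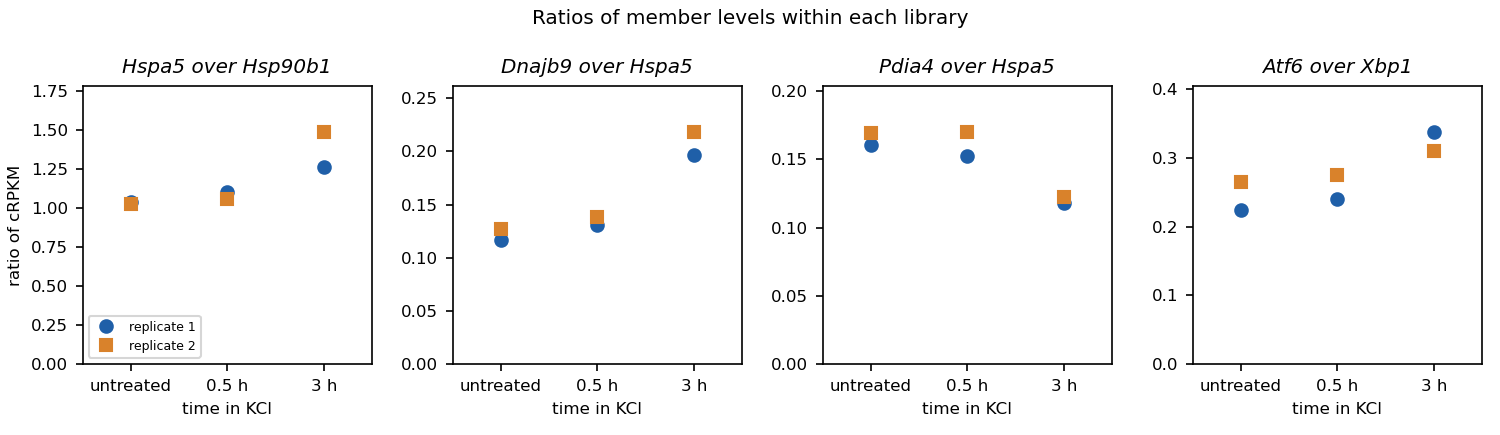
Ratios of cRPKM between pairs of members within each library (vertical axes, from 0) by time in KCl, replicate 1 as circles and replicate 2 as squares. Hspa5 over Hsp90b1 and Dnajb9 over Hspa5 are highest and Pdia4 over Hspa5 lowest in both 3 h libraries.

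At 3 h against untreated, 4 of the 10 members were called higher and 0 lower, where 8.71% of all genes tested were higher and 6.84% lower. The median log2 difference was 0.35 over the 10 and -0.02 over all genes. At an unadjusted p under 0.05, 7 of the 10 and 34.4% of all genes differed. With replicate number as a block, 7 of the 10 were higher (18.6% of all genes, and as many lower), and with DESeq2 also 7 (14.3%, with 11.7% lower). The 3 added in both cases were Hsp90b1, Calr and Herpud1. By level, 7 members had both 3 h libraries above both untreated ones (24.1% of all genes) and 1 had them below (35.9%).

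The calls moved with single libraries, over all genes as over the members. Without untreated replicate 1 or untreated replicate 2, 0 of the 10 were called, and over all genes 58 and 34 were higher and 16 and 4 lower, against 1384 and 1088 with all libraries. These fits assume that the lone untreated library varies like the other groups. The log2 fold changes were then 1.46 and 1.52 for Dnajb9 (adjusted p = 0.067 and 0.072), 0.85 and 0.73 for Dnajc3 (0.086 and 0.13), 0.74 and 0.68 for Hspa5 (0.14 and 0.20), and 0.36 and 0.55 for Atf6 (0.19 and 0.14). Without either 0.5 h library, Dnajb9 and Dnajc3 were called and Hspa5 (0.067 and 0.066) and Atf6 (0.075 and 0.080) were not, with 733 and 742 of all genes higher. Without 3 h replicate 2, Atf6 did not pass, and fewer of all genes were called than with all libraries. Without 3 h replicate 1, Calr and Pdia4 passed beside the 4, and more of all genes were called. The log2 fold changes in these 2 fits, in that order, were 1.25 and 1.71 for Dnajb9 and 0.66 and 0.93 for Dnajc3. They were 0.55 and 0.87 for Hspa5, 0.43 and 0.49 for Atf6, 0.26 and 0.40 for Calr and 0.07 and 0.43 for Pdia4. Atf6 did not pass with library totals in place of TMM scaling (0.067), in the limma fits on log2(cRPKM + 1) and log2(cRPKM + 0.1) (0.097 and 0.089) or with only the 4 libraries compared (0.077), where Hspa5 did not pass either (0.068).

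For 3 of the 4 genes the ratio was larger in replicate 2, and for Atf6 it was not. Replicate 2 had the higher astrocyte sum and Ttr. In untreated neurons it also had the higher summed level of interneuron markers (539 against 323 cRPKM) and excitatory neuron markers (521 against 372). Scaled by TMM, the ratio of 3 h to untreated for the same replicate number was 2.40 in replicate 1 and 3.21 in replicate 2 for Dnajb9, 1.5 and 1.98 for Dnajc3, 1.42 and 1.86 for Hspa5, and 1.43 and 1.32 for Atf6. In replicate 1 the astrocyte sum was 887 cRPKM at 3 h against 824 in untreated neurons, and Ttr was under 1 cRPKM in both. The pan-neuronal sum was 867 against 1260 there, with Tubb3 at 253 against 607 and Snap25 at 265 against 260. In replicate 2 the astrocyte sum was 1874 cRPKM at 3 h against 1240 in untreated neurons, and Ttr was 229 against 136. The pan-neuronal sum of replicate 2 was 688 against 1177. Excitatory neuron markers summed to 301 against 372 in replicate 1 and 272 against 521 in replicate 2. Interneuron markers summed to 244 against 323 and 355 against 539. The part of other cell types in these values was not tested. Pdia4 gave 1.05 in replicate 1 and 1.34 in replicate 2, and Xbp1 0.948 and 1.13, on either side of 1. Herpud1 gave 1.28 and 1.32 and Calr 1.22 and 1.29.

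After 0.5 h of KCl, 0 of the 10 members were called by edgeR, and 0 had an unadjusted p under 0.05. DESeq2, limma and the fit with the block called 0 too, where the block called 0.0818% of all genes higher and DESeq2 0.22% higher and 0.0126% lower. Over all genes, 0.0377% were higher and 0% lower at that time, and 0.805% had an unadjusted p under 0.05. The log2 differences ran from -0.06 (Xbp1) to 0.20 (Dnajb9), with a median of 0.01. The 95% intervals bound what these libraries allow: for Hspa5 from -0.29 to 0.40, for Herpud1 from -0.25 to 0.23 and for Dnajb9 from -0.19 to 0.59. By level, Dnajb9 and Hspa5 had both 0.5 h libraries above both untreated ones, where 14.8% of all genes did, and 0 had them below, where 6.38% did, and for Hspa5 this did not hold after TMM scaling.

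Between the times, 3 h against 0.5 h, the same 4 members were called higher and 0 lower, where 6.39% of all genes were higher and 4.87% lower. The untreated level cancels out of it, so it sets the effects of KCl at the later and the earlier time against each other, and it shares its 3 h libraries with the comparison above. The log2 fold changes were 1.29 ± 0.16 for Dnajb9 (adjusted p = 0.014), 0.76 ± 0.12 for Dnajc3 (0.023), 0.66 ± 0.14 for Hspa5 (0.041) and 0.44 ± 0.10 for Atf6 (0.046). With the block, 7 were higher (15.6% of all genes), and with DESeq2 7 (12.2%, with 10.1% lower). By level, 7 had both 3 h libraries above both 0.5 h ones (21.0% of all genes) and 1, Sdf2l1, had them below (35.4%). Without either 0.5 h library 0 members were called, as were 0 of all genes, and the log2 fold changes were 1.29 and 1.32 for Dnajb9, 0.81 and 0.75 for Dnajc3, 0.70 and 0.65 for Hspa5, and 0.42 and 0.49 for Atf6. Without either untreated library only Dnajb9 was called (359 and 368 of all genes higher), without 3 h replicate 2 Dnajb9 and Dnajc3 were, and with library totals again those 2. Without 3 h replicate 1, Pdia4 passed and Atf6 did not, beside Dnajb9, Dnajc3 and Hspa5. More of all genes were called in that fit than with all libraries, and fewer without 3 h replicate 2.

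The genes whose levels over the 6 libraries were most like those of Hspa5, by Pearson's correlation of log2(cRPKM + 1) among 12175 other genes with a symbol and a mean of at least 1 cRPKM, were Atg3, Trim56, Cdyl, Slc25a25 and Gtf2h1 (r = 0.999 each). Among the members, Dnajc3 ranked 33rd (r = 0.996), Hsp90b1 134th (0.991) and Dnajb9 207th (0.987), and Sdf2l1 had r = -0.874. Those most like Herpud1 were Spag9 (r = 0.999), Tapt1, Tnks2, Mon2 and Wnk1 (0.998 each). With 6 libraries in 3 groups that share depth and culture, such values are descriptions.

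The rest of the pathway was read in 11 lists that hold 185 genes, of which 184 were tested; the 10 members are not among them. Of the 184, 26 were higher at 3 h than in untreated neurons (14.1%, against 8.71% of all genes) and 7 lower (6.84% of all genes), with a median log2 difference of 0.18. With the block 54 were higher and 12 lower, where 18.6% of all genes were higher and 18.6% lower. At 0.5 h edgeR called 0 of the 184, with 2 at an unadjusted p under 0.05, 0 with the block and 1 with DESeq2. Against 0.5 h, at 3 h 20 were higher and 4 lower, where 6.39% of all genes were higher and 4.87% lower. When 1 library was left out, the number higher at 3 h moved in the same direction as the number over all genes. Both fell without an untreated library, a 0.5 h library or 3 h replicate 2, and both rose without 3 h replicate 1. The numbers of lower genes also fell without an untreated or a 0.5 h library and rose without 3 h replicate 1, among the 184 and over all genes.

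**Figure D5:**
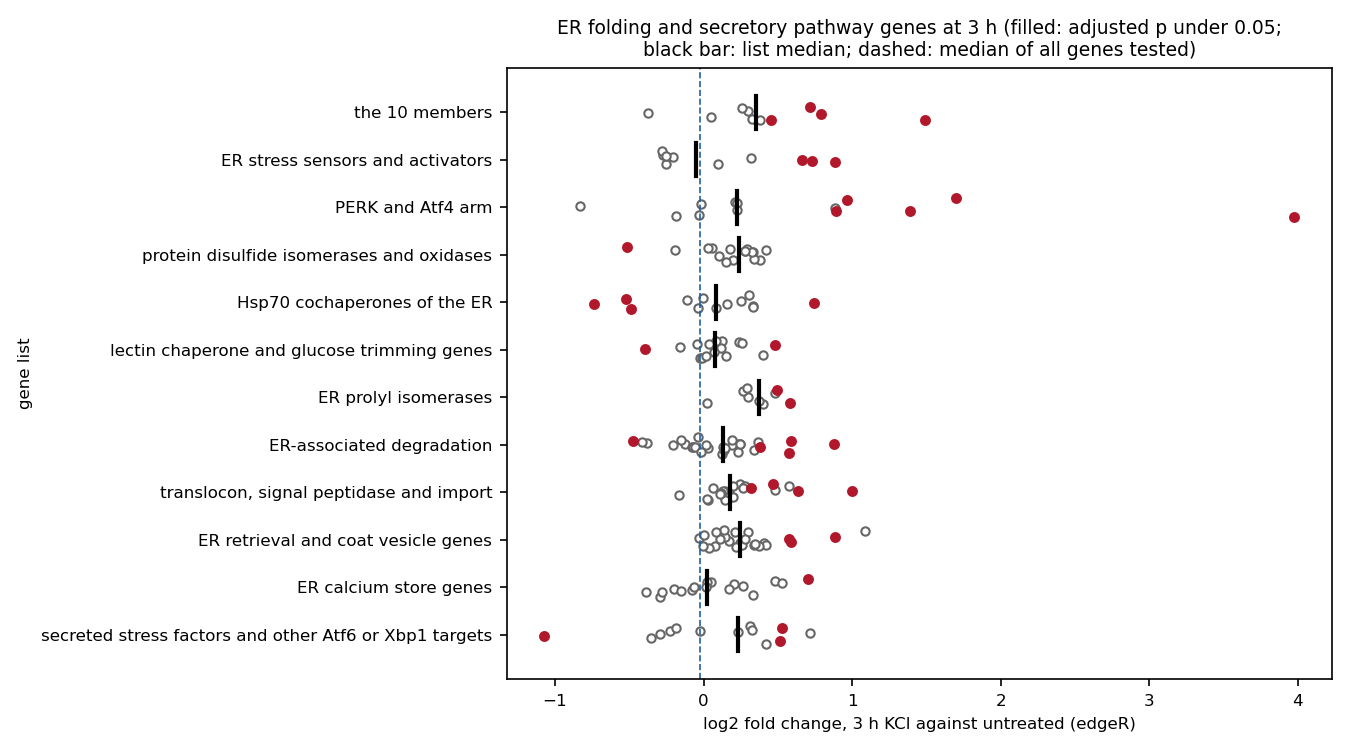
Log2 fold change at 3 h against untreated (horizontal axis, edgeR) of the 10 members and of the genes of 11 lists (1 point a gene; filled, adjusted p under 0.05; black bar, list median; dashed line, median of all genes, -0.02). Atf3, at 3.98, is farthest to the right and Ficd, at -1.07, farthest to the left.

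The counts of each list below stand beside 8.71% of all genes higher and 6.84% lower at 3 h. The share higher was under that for disulfide isomerases and oxidases (0%), calcium store genes (5.88%), lectin chaperone genes (6.25%) and Hsp70 cochaperones (7.69%). In the other lists it ran from 12% to 38.5%. Among the sensors and their activators, 3 of 10 rose and 0 fell at 3 h. Ern1, which encodes the kinase and nuclease Ire1, stood at 4.44 and 4.74 cRPKM at 3 h, against 2.59 and 2.57 in untreated neurons, a log2 fold change of 0.89 ± 0.09 (adjusted p = 0.0073). Eif2ak3, the gene of the kinase Perk, stood at 16.8 and 16.1 cRPKM, against 11.1 and 9.50 (0.73 ± 0.15, adjusted p = 0.030). Creb3l2, a relative of Atf6 that is also cut in the Golgi, rose by 0.66 ± 0.11 on the log2 scale (adjusted p = 0.020), and Creb3 had 0.32 ± 0.09 (0.060). So the genes of all 3 sensors, Atf6 included, were higher, though Atf6 did not pass in every alternative fit. Of the list's 10 genes 5 had positive values, and its median was -0.05. Atf6b (-0.20), Mbtps1 (-0.28) and Mbtps2 (-0.26), named after their values were seen, were among the others and did not pass.

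In the arm that runs from Perk through eIF2 to Atf4, 5 of 13 rose and 0 fell, with a median of 0.22. Atf3, a stress-induced repressor and activator that neuronal activity also induces, stood at 34.3 and 52.9 cRPKM at 3 h, against 2.88 and 2.83 in untreated neurons (log2 fold change 3.98 ± 0.22, adjusted p = 0.0032). The genes of the eIF2 phosphatase subunits, Ppp1r15a and Ppp1r15b, rose by 1.70 ± 0.11 (0.0038) and 1.39 ± 0.14 (0.0075), and Sesn2, a restrainer of mTOR signalling, by 0.89 ± 0.10 (0.0085). Atf4 itself, named after its values were seen, rose by 0.97 ± 0.15 (0.015). The other 8 of the list did not pass, and those named here were chosen after their values were seen. Cebpb stood 0.89 ± 0.33 higher on the log2 scale (adjusted p = 0.13, or 0.0498 with pairing), and Eif2s1, Nupr1 and Vldlr had 0.21, 0.22 and 0.22. Ddit3 (CHOP) had a log2 difference of -0.03 ± 0.21 (adjusted p = 0.94), Asns -0.02 ± 0.17 (0.95), Chac1 -0.18 ± 0.13 (0.37) and Trib3 -0.83 ± 0.28 (0.096).

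Of the folding enzymes beside the members, few passed. Among 16 disulfide isomerases and oxidases 0 rose and 1 fell, Tmx4, a membrane-bound thioredoxin relative (-0.52 ± 0.11, adjusted p = 0.033). Erp44 (0.38 ± 0.10, 0.055), Pdia3 (0.33 ± 0.11, 0.097) and P4hb (0.34 ± 0.12, 0.10), the last being protein disulfide isomerase itself, had higher values without passing. The list's median was 0.24, and 5 were higher with the block, where 18.6% of all genes were. Among 13 Hsp70 cochaperone and related genes of the ER, some of whose J domains face the cytosol (Dnajb12, Dnajb14, Dnajc18), 1 rose and 3 fell. Dnajc1 rose by 0.75 ± 0.10 (0.012), while Dnajc16 (-0.73 ± 0.09, 0.010), the reductase gene Dnajc10 (-0.49 ± 0.08, 0.020) and Dnajb14 (-0.53 ± 0.10, 0.027) fell. The J-domain genes of the ER thus included some that rose (Dnajb9, Dnajc3, Dnajc1) and some that fell. Dnajc10 averaged 17.2 ± 1.1 cRPKM at 3 h and 25.1 ± 0.0071 in untreated neurons (SD, n = 2 each).

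Among 16 lectin chaperone, oligosaccharyl transferase and glucose trimming genes, 1 rose (Dad1, a transferase subunit, 0.48 ± 0.08, adjusted p = 0.019) and 1 fell (Lman1, a cargo lectin, -0.40 ± 0.09, 0.036), with a median of 0.07. Prkcsh (0.24 ± 0.08, 0.11) and Mcfd2 (0.40 ± 0.18, 0.18) did not pass. Among 9 prolyl isomerases 2 rose, Fkbp14 (0.58 ± 0.11, 0.028) and Fkbp9 (0.50 ± 0.12, 0.044), and all 9 had positive values, with a median of 0.37. Fkbp10 (0.40 ± 0.14, 0.11) and Ppic (0.37 ± 0.14, 0.12) were among those that did not pass.

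Of 29 genes for ER-associated degradation, 4 rose and 1 fell, with a median of 0.13. Man1b1, the mannosidase that marks glycoproteins for disposal, stood at 41.9 and 46.5 cRPKM at 3 h, against 24.2 and 25.8 in untreated neurons (0.88 ± 0.09, adjusted p = 0.0073). The ubiquitin-conjugating enzyme gene Ube2j1 (0.59 ± 0.09, 0.018) and the ligase gene Rnf185 (0.57 ± 0.11, 0.028) rose too, as did Ube2g2, named after its values were seen (0.38 ± 0.10, 0.05). Edem2 fell (-0.47 ± 0.10, 0.033).

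Further along the secretory pathway, 4 of 23 genes for import into the ER rose and 0 fell (median 0.18). They were Tram2 (1.00 ± 0.17, adjusted p = 0.021), Srprb, a subunit of the signal recognition particle receptor (0.47 ± 0.10, 0.032), Ssr3 (0.63 ± 0.13, 0.033) and Srp9 (0.32 ± 0.08, 0.045). Of 25 retrieval and coat vesicle genes 3 rose and 0 fell (median 0.25): Sar1a, the GTPase that starts COPII budding (0.57 ± 0.11, 0.025), Copb1 (0.59 ± 0.13, 0.040) and the COPII cargo adaptor gene Sec24d (0.88 ± 0.20, 0.042), while Sec13 had 0.41 ± 0.11 (0.061). Of 17 calcium store genes 1 rose, the calcium-binding protein gene Calu (0.70 ± 0.13, 0.025), and 0 fell (median 0.03). Rcn2 (0.27 ± 0.10, 0.13), Stim1 (-0.29 ± 0.11, 0.13) and Itpr2 (0.33 ± 0.16, 0.20) did not pass.

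Of 13 secreted stress factors and other targets of Atf6 or Xbp1, 2 rose and 1 fell (median 0.23). Selenok (0.51 ± 0.09, adjusted p = 0.024) and Serp1 (0.53 ± 0.13, 0.050 when rounded and just under the threshold) rose. Ficd, whose enzyme attaches AMP to Hspa5 and removes it, fell to 1.71 and 2.86 cRPKM at 3 h, against 4.69 and 5.20 in untreated neurons (-1.07 ± 0.23, 0.034). Creld2, a disulfide isomerase-like target of Atf6, stood at 13.6 and 21.3 cRPKM, against 10.9 and 11.1, and did not pass (0.71 ± 0.19, 0.060).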

How the data were processed

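RNA of 6 libraries was sequenced (TruSeq RNA kit V2, per the labels, a kit without strand information). The authors deposited, per gene, a read count and an RPKM value (cRPKM, whose correction no source used here explains). Bowtie and mm9 are named in the submitters' processing notes; no source used here gives versions, the annotation or how reads with several matches were handled. Counts of 15895 genes that passed edgeR's filterByExpr (min.count 10) were fitted with edgeR 4.0.16 (R 4.3.3) by quasi-likelihood, with TMM scaling, group as the only term and all 6 libraries, and p was adjusted by Benjamini-Hochberg. The SE is the log2 fold change over the root of F. The fit was also run on simulated counts with less spread than these libraries and no replicate effect. That run therefore does not show how often the calls made here are right. DESeq2 1.42.0, limma 3.58.1 on log2(cRPKM + 1) or log2(cRPKM + 0.1), other scalings, no filter, a replicate block and leaving out each library were alternatives.

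Depth ran from 98882007 to 141865913 counts. Replicate numbers deviated together (r = 0.787, 0.566 and 0.601 between the groups' replicate differences across genes). The libraries thus look paired by the data, while the labels do not say so. The main fit does not use these pairs, and only the fits with the replicate block do. The members, the lists and the marker lists were chosen with earlier results of these data known. Named list genes are up to 4 of each list with the smallest adjusted p at 3 h against untreated, and the 5 genes most like Hspa5 and Herpud1.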

Additional observations from a re-analysis of the deposited data

Results flagged for a closer look

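For 4 of the members the KCl effect at 3 h differed from that at 0.5 h, by the test of 3 h against 0.5 h KCl (edgeR's quasi-likelihood test, Benjamini-Hochberg adjustment). The difference was 1.29 on the log2 scale for Dnajb9 (adjusted p = 0.014), 0.76 for Dnajc3 (0.023), 0.66 for Hspa5 (0.041) and 0.44 for Atf6 (0.046). Each was higher in both 3 h libraries than in both 0.5 h libraries. When either 0.5 h library was left out, 0 of all genes passed, these 4 included, and the differences were 1.29 and 1.32 for Dnajb9, 0.81 and 0.75 for Dnajc3, 0.70 and 0.65 for Hspa5, and 0.42 and 0.49 for Atf6.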

How the results depend on the processing

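With 2 libraries a group the counts of calls moved with the fit, while no called member changed direction. The counts over all genes moved too. At 3 h against untreated 1384 were higher, 2963 with the block, 2276 with DESeq2, 3148 with DESeq2 plus the block and 734 with only the 4 libraries. Against 0.5 h these counts were 1015, 2477, 1942, 2776 and 354, and 689 and 686 in the limma fits. Of the members at 3 h, where 4 were higher than in untreated neurons, 7 were with the replicate block, with DESeq2 and with DESeq2 plus the block, 2 with only the 4 libraries compared, and 0 to 6 when 1 library was left out. Against 0.5 h, where 4 were higher, the same 3 fits gave 7, library totals and both limma fits 2, only the 4 libraries 1, and leaving out 1 library 0 to 4. Among the other 184 pathway genes at 3 h against untreated, 26 higher and 7 lower became 54 and 12 with the block, 43 and 11 with DESeq2, 67 and 13 with DESeq2 plus the block, 12 and 1 with only the 4 libraries, and 1 to 43 and 0 to 9 when 1 library was left out. Against 0.5 h, 20 higher and 4 lower became 45 and 9 with the block, 36 and 8 with DESeq2, 59 and 11 with DESeq2 plus the block, 6 and 1 with only the 4 libraries, and 0 to 32 and 0 to 7 when 1 library was left out. At 0.5 h, 1 of them was higher with DESeq2, with or without the block, and 0 with edgeR. The cause was not tested. With library totals the median log2 difference of all genes was -0.08 at 3 h against untreated and -0.10 against 0.5 h, where TMM scaling gave -0.02 and -0.03. Over all genes 1115 were then higher and 1340 lower at 3 h against untreated, where TMM scaling gave 1384 and 1088. Against 0.5 h, 762 were higher and 1037 lower with library totals, and 1015 and 774 with TMM scaling.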

Other observations

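The ER stress element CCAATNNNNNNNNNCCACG stood in the promoter window of 37 of 27025 genes, 20 of which were tested. Against untreated neurons 2 were higher at 3 h, the members Hspa5 and Dnajc3, and 1 was lower, Adcy3, an adenylyl cyclase gene (log2 fold change -0.77 ± 0.11, adjusted p = 0.013, edgeR's quasi-likelihood test with Benjamini-Hochberg adjustment). The median log2 difference was 0.13. Without the members, 16 were tested, 0 were higher and 1 was lower, with a median of 0.06. With the replicate block 5 of the 20 and 1 of the 16 were higher, and 1 of each was lower. Over all genes tested 8.71% were higher, and 18.6% with the block.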
